A study of Mus musculus with 10 samples.

Results

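The matrix metalloproteinase (Mmp), Adamts, Adamts-like (Adamtsl) and Timp genes were examined for their response to cyclic mechanical strain. They were taken from the count table by symbol, as every gene named Mmp, Adamts or Adamtsl with a number, and Timp1 to Timp4. That gave 51 of the 46095 genes, namely 23 MMP, 19 ADAMTS, 5 ADAMTSL and 4 TIMP genes. RNA-seq was done on C3H10 T1/2, a line of mouse embryo fibroblasts that can form bone, cartilage and fat cells, with 3 libraries from strained cells (CMS) and 3 from static control cells (Ctrl). Both groups grew for 48 h on flexible plates coated with type I collagen. CMS cells were then stretched to 10% elongation in a sine wave of 0.5 Hz, for 8 h per day over 3 days. The labels give the strain of the RNA-seq cells as C57BL/6 and leave unsaid whether replicates were separate cultures, so the p-values here cover library-to-library spread, part or all of which could be technical. A second assay, ATAC-seq, which marks open chromatin by transposase insertion, was run on 2 libraries of Piezo1 knockout cells made with CRISPR/Cas9 and 2 of GFP control cells of the same line. The labels name no strain treatment for the ATAC-seq cells and do not say whether the knockout is a clone. Peak lists hold no reads over Piezo1 transcripts, so the knockout was not checked here.

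MMPs are zinc endopeptidases that cleave collagens, proteoglycans and other proteins outside the cell, and most are made as inactive proenzymes. ADAMTS enzymes are secreted relatives with thrombospondin repeats that cut proteoglycans such as aggrecan and versican, trim procollagens, or act on microfibril proteins, while ADAMTSL proteins share the repeats but lack the protease domain. TIMPs bind the active site of MMPs and block it, and Timp3 also inhibits ADAMTS enzymes. In fibroblasts and bone-forming cells the balance of the families sets the turnover of the matrix.

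Of the 51 members, 36 had enough counts to be tested and 9 were called at an adjusted p under 0.05 by edgeR's quasi-likelihood test with Benjamini-Hochberg adjustment over all 15335 genes tested. That is 25% of the tested members, beside 13.3% of all tested genes. Mmp3, Mmp13, Mmp19 and Adamts7 were higher in CMS, 4 genes or 11.1% of the tested members beside 5.94% of all tested genes. Mmp9, Adamts5, Adamts9, Adamts17 and Adamts20 were lower in CMS, 5 genes or 13.9% beside 7.39%. The 3 CMS libraries did not overlap the 3 Ctrl libraries for 11 members that were higher, 30.6% beside 17.4% of all tested genes. They did not overlap for 7 members that were lower, 19.4% beside 17.9%. The median log2 fold change was 0.05 over the tested members and 0.0049 over all tested genes.

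**Figure D1:**
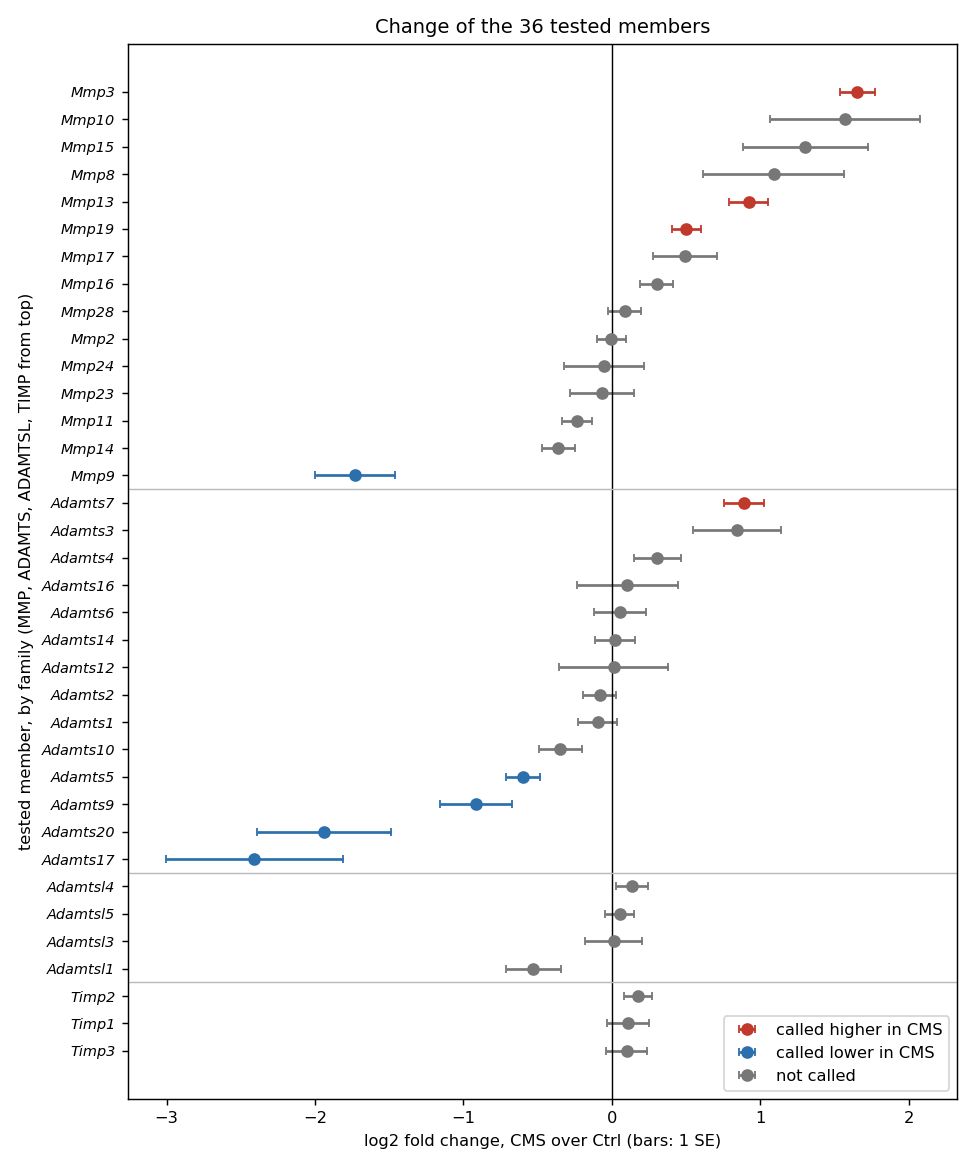
Log2 fold change, CMS over Ctrl, of the 36 tested members (x axis), grouped by family from MMP at the top to TIMP at the bottom, with bars of 1 SE. Red points were called higher, blue points lower and grey points not called. Mmp3 at 1.66 is the highest point and Adamts17 at -2.41 the lowest, and no TIMP or ADAMTSL gene was called.

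Library totals lay between 36150738 and 41024689 counts, of which the 51 members took between 1.07% and 1.19%. CMS replicate 1 and Ctrl replicate 3 stood apart from the other libraries of their groups, with 34.7 to 59.6 as the chi-square per degree of freedom over genes against their own replicates, where the other pair of CMS libraries had 15.7 and the other pair of Ctrl libraries 9.19. Among the 18 tested ADAMTS and ADAMTSL genes, CMS replicate 1 was the lowest CMS library for 14 and Ctrl replicate 3 the lowest Ctrl library for 11. Without both of these libraries, an alternative added after seeing the data, 8 members were called higher and 7 lower. Calls rose over all tested genes too, to 20.2% in that fit from 13.3% in the main fit. Mmp8, Mmp15, Mmp16 and Adamts4 joined the higher calls, and Mmp14 and Adamtsl1 joined the lower ones. Fibroblast and mesenchymal markers were abundant in all 6 libraries apart from Thy1, which had between 0 and 2 counts per library. The summed level of the 9 mesenchymal markers was 36962 to 42950 CPM (counts scaled to a common library size, after TMM scaling between libraries) in CMS and 61289 to 62675 CPM in Ctrl, and 5 of them were called lower, among them Col1a1, Col1a2 and Col3a1, the chains of the main fibrillar collagens. Most of the sum came from Col1a1, at a mean of 18809 CPM in CMS and 30457 CPM in Ctrl, and Col1a2, at 15611 and 22865 CPM. Vim and Twist1 were also called lower. Pdgfra, Pdgfrb and Prrx1 were not called, at log2 fold changes of -0.03, -0.04 and 0.19. In bulk RNA, fewer cells of a type and less RNA per cell cannot be told apart.

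The secreted collagenases and stromelysins held the higher calls of the largest size. Mmp3, or stromelysin-1, cleaves proteoglycans, fibronectin and several collagens and activates other proMMPs. Its level was 156, 145 and 131 CPM in CMS replicates 1 to 3, against 42.0, 43.7 and 51.6 CPM in Ctrl. Every CMS library was above every Ctrl library, by a wide margin. The log2 fold change was 1.66 with an SE of 0.12 (edgeR's quasi-likelihood test, adjusted p = 2.20e-05), which is 3.15-fold. Mmp13, or collagenase-3, is the main collagenase of rodent bone and cartilage and cuts fibrillar collagen. Its level was 360, 384 and 283 CPM in CMS, against 175, 199 and 168 CPM in Ctrl, again with no overlap. It was 1.89-fold higher in CMS, a log2 fold change of 0.92 with an SE of 0.13 (edgeR, adjusted p = 0.00149). Mmp19, a secreted enzyme that cuts basement membrane proteins, rose less. Its level was 101, 108 and 95.9 CPM in CMS, against 72.5, 74.1 and 68.3 CPM in Ctrl, a log2 fold change of 0.50 with an SE of 0.10 (edgeR, adjusted p = 0.00725). The groups did not overlap, and the annotated span of Mmp19 overlaps that of Tmem198b, which was not called at a log2 fold change of -0.06. If counting ignored the strand, reads of such overlapping genes cannot be told apart. All 3 calls were kept in each of the 6 fits that left out 1 library.

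**Figure D2:**
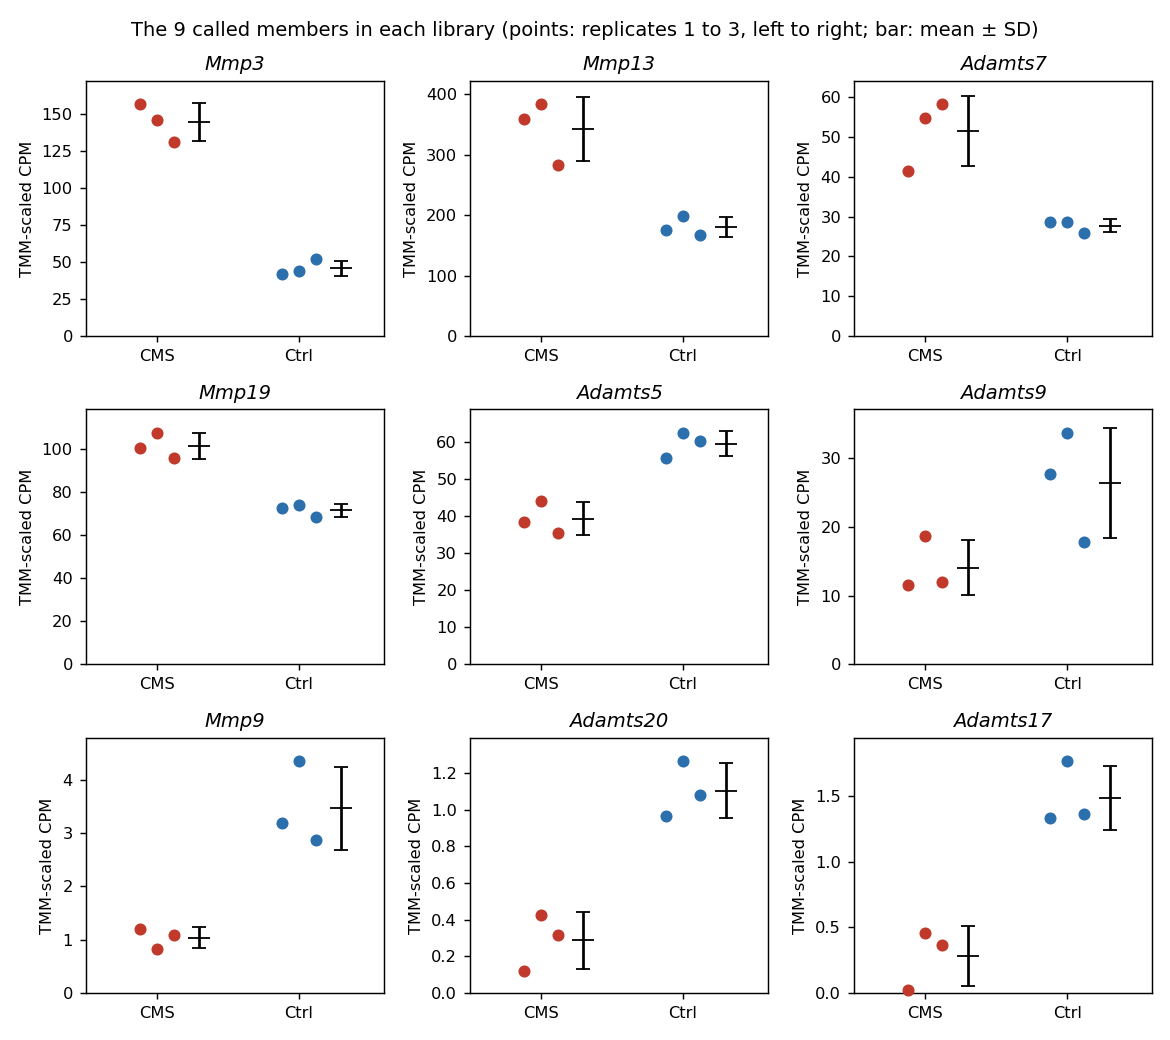
TMM-scaled CPM (y axis, from 0) of the 9 called members in CMS, left, and Ctrl, right, with 1 point per library and a bar for the mean ± SD of 3. Adamts9 is the only called member whose groups overlap, with CMS replicate 2 at 18.6 CPM above Ctrl replicate 3 at 17.8 CPM.

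Mmp3 and Mmp13 lie in a run of 10 MMP genes on chromosome 9 that spans 427 kb, at chr9:7272514-7699585 in GRCm38.p6, the build also known as mm10. From the left end it holds Mmp13, Mmp12, Mmp1b, Mmp3, Mmp1a, Mmp10, Mmp8, Mmp27, Mmp20 and Mmp7. Mmp10, or stromelysin-2, a close relative of Mmp3, had 35, 53 and 51 counts in CMS, against 28, 7 and 8 counts in Ctrl. The groups did not overlap, and the log2 fold change of 1.57 with an SE of 0.50 was not called (edgeR, adjusted p = 0.0646). DESeq2 called it at an adjusted p of 0.0235, and so did edgeR without Ctrl replicate 1, the highest of its group, at 0.0208 and a log2 fold change of 2.44. Mmp8, the collagenase known from neutrophils, had 42, 46 and 37 counts in CMS, against 16, 7 and 30 counts in Ctrl, without overlap. Its log2 fold change of 1.09 with an SE of 0.48 was not called (edgeR, adjusted p = 0.155), but was without Ctrl replicate 3, at 0.0489 and a log2 fold change of 1.74. The neutrophil markers S100a9 and Ly6g had 0 counts in every library, and the 6 markers summed to 1.20 to 2.23 CPM in CMS and 0.843 to 1.42 CPM in Ctrl.

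The other cluster genes were too low to test. Mmp12, the macrophage elastase, had 5, 11 and 1 counts in CMS, against 1, 1 and 0 counts in Ctrl. Summed over the libraries this is 17 against 2 counts, a ratio per library size of 7.70 with a 95% interval of 1.83 to 68.7 that covers counting error only, since reads of amplified cDNA without molecular identifiers are not independent molecules. The groups touched at 1 count. Ptprc, the pan-leukocyte marker, had 0 counts in every library. The 8 leukocyte and macrophage markers summed to 32.4 to 33.7 CPM in CMS and 18.6 to 23.4 CPM in Ctrl, and Cd14 was called higher. Most of that difference came from Cd14, at a mean of 17.7 CPM in CMS and 7.01 CPM in Ctrl. The other tested markers, Cd68, Csf1r and Lyz2, were not called, at log2 fold changes of 0.50, -0.22 and 0.02. The part of leukocytes in the Mmp12 and Mmp8 counts was not tested. Mmp27 had 20 counts over the CMS libraries and 14 over the Ctrl libraries. Mmp1a and Mmp7 had 1 count each, in CMS, while Mmp1b and Mmp20, the tooth enamel protease, had none. Mmp1a and Mmp1b, the rodent relatives of the human interstitial collagenase, are close copies, so their counts are uncertain.

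**Figure D3:**
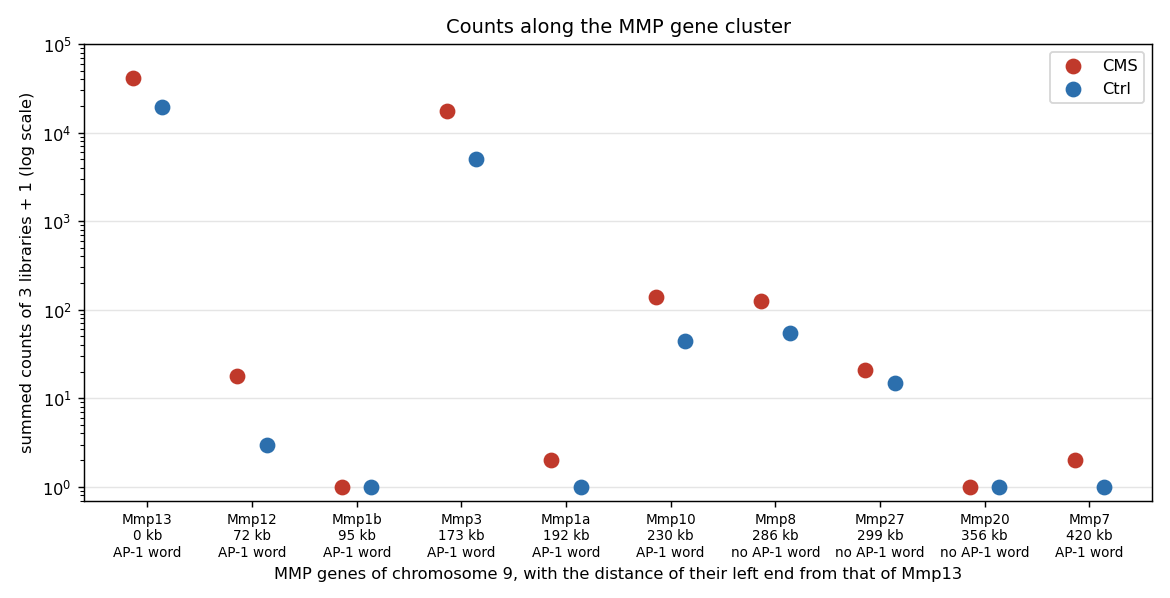
Summed counts of the 3 CMS and the 3 Ctrl libraries, plus 1, on a log axis, for the 10 MMP genes of the chromosome 9 run in map order, with the distance in kb of each left end from that of Mmp13 and whether the promoter holds the AP-1 word. Most counts are from Mmp13 and Mmp3, which were called higher, and in none of the 10 is the CMS point below the Ctrl point.

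The promoter letters of this run differed from those of the other members whose promoters could be read. AP-1, a dimer of Fos and Jun proteins, is known to act on several MMP promoters through the word TGACTCA, and TATAAA is the TATA box. RefSeq promoter sequences (GRCm38.p6, 250 bases before to 50 after the start) were found for 36 of the 51 members and searched on both strands. The 15 members without an entry all lie outside the run and were not searched. They include the called Mmp9, Mmp19, Adamts5 and Adamts7, so whether the words are particular to the run among all members is not known here. TGACTCA was present for 7 of the 10 cluster genes, 0 of the 26 other members with an entry, and 5.95% of all 27025 genes in the table. TATAAA was present for 9 of the 10 cluster genes, 3 of the 26 others and 15.7% of all genes. The RUNX core TGTGGT, was present for 4 of 10, 2 of 26 and 18.9%, and none of the 3 words contains another. The median GC content was 41.7% for the cluster promoters, 66% for those of the other members and 52.7% for all promoters. A match is a description of the letters and not evidence of binding.

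Promoter cores of 120 bases, 100 before to 20 after the start on the plus strand, are shown for 6 genes so that the called cluster genes can be read beside their neighbours and beside Mmp14, a member outside the run. Capitals mark TGACTCA (or TGAGTCA, its reverse complement) and TATAAA (or TTTATA).
Mmp13, chr9:7272414-7272533: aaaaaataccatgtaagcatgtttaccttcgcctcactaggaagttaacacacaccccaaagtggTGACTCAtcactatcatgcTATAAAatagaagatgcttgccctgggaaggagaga
Mmp3, chr9:7445722-7445841: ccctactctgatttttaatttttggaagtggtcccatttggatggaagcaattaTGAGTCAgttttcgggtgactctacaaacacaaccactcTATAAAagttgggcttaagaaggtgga
Mmp10, chr9:7502242-7502361: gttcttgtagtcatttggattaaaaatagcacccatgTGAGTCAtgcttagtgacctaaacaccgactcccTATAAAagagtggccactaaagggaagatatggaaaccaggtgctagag
Mmp12, chr9:7347274-7347393: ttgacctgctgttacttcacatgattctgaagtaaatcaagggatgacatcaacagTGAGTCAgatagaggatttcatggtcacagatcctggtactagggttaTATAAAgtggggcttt
Mmp8, chr9:7558329-7558448: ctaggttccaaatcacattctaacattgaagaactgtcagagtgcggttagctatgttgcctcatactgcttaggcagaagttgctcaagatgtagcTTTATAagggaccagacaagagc
Mmp14, chr14:54431498-54431617: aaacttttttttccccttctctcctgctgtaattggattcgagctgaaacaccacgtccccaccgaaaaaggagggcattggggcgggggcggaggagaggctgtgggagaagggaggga
The AP-1 word ends ahead of the TATA word in Mmp13, Mmp3, Mmp10 and Mmp12. Its first base is 19, 39, 34 and 48 bases before that of the TATA word. It begins 35 bases before the start in Mmp13, 46 in Mmp3, 63 in Mmp10 and 44 in Mmp12, whose second annotated start is the one shown. The TATA word of Mmp13 begins 16 bases before the start. That of Mmp12 lies past the start shown, so it is not placed as a TATA box of that start. Mmp8 has the TATA word on the other strand and no AP-1 word, and Mmp14 has neither.

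The gelatinases, which cut denatured collagen and type IV collagen, differed from each other. Mmp9 was low in all libraries, at 1.20, 0.828 and 1.09 CPM in CMS, against 3.19, 4.35 and 2.87 CPM in Ctrl. These rest on 31 to 50 counts per CMS library and 101 to 155 per Ctrl library, and the groups did not overlap. Mmp9 fell by 1.73 on the log2 scale, with an SE of 0.27 (edgeR, adjusted p = 0.00245), in every fit that left out 1 library too. Mmp2, the gelatinase that fibroblasts make constitutively, was at 1560, 1741 and 1658 CPM in CMS, against 1624, 1735 and 1617 CPM in Ctrl. The 2 ranges lay over each other, and the log2 fold change of -0.00 had an SE of 0.10 (edgeR, adjusted p = 0.983), with a sign that turned under other scaling.

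The membrane-type MMPs sit on the cell surface, where Mmp14 (MT1-MMP) cuts collagen and activates proMMP2. Mmp14 was at 2253, 2158 and 2299 CPM in CMS, against 2707, 2658 and 3248 CPM in Ctrl. All CMS libraries were below all Ctrl libraries, but the log2 fold change of -0.36 with an SE of 0.11 was not called (edgeR, adjusted p = 0.0555). DESeq2 called it (adjusted p = 0.0143), as did edgeR without CMS replicate 1 and Ctrl replicate 3 (adjusted p = 0.0289). Mmp15 (MT2-MMP) had 39, 56 and 36 counts in CMS, against 10, 16 and 22 counts in Ctrl, with no overlap. Its log2 fold change of 1.30 with an SE of 0.42 was not called (edgeR, adjusted p = 0.066), while DESeq2 gave an adjusted p of 0.0356. Mmp16 (MT3-MMP) was at 25.6, 28.2 and 29.8 CPM in CMS, against 23.5, 22.9 and 21.4 CPM in Ctrl, likewise without overlap and not called at a log2 fold change of 0.30 (edgeR, adjusted p = 0.0969). Of the 5 tested membrane-type genes none was called by edgeR, and 4 had an unadjusted p under 0.05. The share of all tested genes under that p is not given here, so this count is not read as a response. Their summed level was 2270 ± 72.2 CPM in CMS and 2898 ± 327 CPM in Ctrl (SD, n = 3 each), most of it from Mmp14. The summed level of the secreted MMPs was 2422 ± 118 CPM in CMS and 2157 ± 83.0 CPM in Ctrl. Most of it came from Mmp2, at a mean of 1653 CPM in CMS and 1658 CPM in Ctrl. Most of the difference came from the called Mmp13, at means of 342 and 181 CPM, and Mmp3, at 144 and 45.8 CPM.

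Among the remaining MMPs above 10 CPM, Mmp11 (stromelysin-3), known from stromal fibroblasts, was at 113, 119 and 136 CPM in CMS, against 141, 140 and 153 CPM in Ctrl. It did not overlap and was not called, at a log2 fold change of -0.24 with an SE of 0.10 (edgeR, adjusted p = 0.153). Mmp28 (epilysin) was at 50.6 to 57.2 CPM in CMS and 45.3 to 56.0 CPM in Ctrl, with a log2 fold change of 0.09. Mmp17, Mmp23 and Mmp24 were tested at lower levels and not called.

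The ADAMTS proteoglycanases were lower or not called. Adamts5, a main aggrecanase of mouse cartilage that also cuts versican, was at 38.4, 44.0 and 35.4 CPM in CMS, against 55.7, 62.4 and 60.2 CPM in Ctrl. The groups did not overlap, and Adamts5 fell by 0.60 on the log2 scale with an SE of 0.11 (edgeR, adjusted p = 0.00656), a call kept whichever library was left out. Adamts9, which cuts versican and aggrecan, was at 11.5, 18.6 and 11.9 CPM in CMS, against 27.7, 33.7 and 17.8 CPM in Ctrl. CMS replicate 2 was above Ctrl replicate 3, so the groups overlapped. Adamts9 fell by 0.91 on the log2 scale with an SE of 0.24 (edgeR, adjusted p = 0.0336). The call was lost without CMS replicate 1 (adjusted p = 0.101), CMS replicate 3 (0.12), Ctrl replicate 1 (0.092) or Ctrl replicate 2 (0.0626).

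Adamts20, a close relative of Adamts9 known from mouse pigment pattern and palate closure, had 5, 16 and 13 counts in CMS, against 37, 45 and 38 counts in Ctrl. It fell by 1.94 on the log2 scale with an SE of 0.45 (edgeR, adjusted p = 0.0200), and the groups did not overlap. Without CMS replicate 3 or Ctrl replicate 1 the adjusted p was 0.0671 or 0.0512. Adamts1 and Adamts4, the other long-studied proteoglycanases, were not called. Adamts1 was at 43.2, 50.8 and 43.2 CPM in CMS, against 49.6, 56.0 and 41.0 CPM in Ctrl, and Adamts4 at 80.0, 120 and 103 CPM in CMS, against 81.1, 95.1 and 69.1 CPM in Ctrl. Both overlapped, with log2 fold changes of -0.09 for Adamts1 (edgeR, adjusted p = 0.67) and 0.31 for Adamts4 (edgeR, adjusted p = 0.228). Adamts4 was called higher, at an adjusted p of 0.04, without CMS replicate 1 and Ctrl replicate 3. Adamts1 and Adamts5 are neighbours on chromosome 16, 55044 bases apart.

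Adamts7 and Adamts12 form a pair known to cut cartilage oligomeric matrix protein (COMP). Adamts7 was at 41.4, 54.8 and 58.2 CPM in CMS, against 28.7, 28.7 and 25.8 CPM in Ctrl. It was the called ADAMTS gene that rose, by a log2 fold change of 0.89 with an SE of 0.14 (edgeR, adjusted p = 0.00227), with no overlap and in all 6 fits that left out 1 library. Adamts12 was at 6.44, 15.4 and 10.3 CPM in CMS, against 11.5, 15.1 and 5.15 CPM in Ctrl. The lowest value of each group came from CMS replicate 1 and Ctrl replicate 3, and the log2 fold change of 0.01 had an SE of 0.37.

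Of the procollagen N-proteinases, which remove the amino-terminal propeptide of fibrillar collagens, none of 3 was called. Adamts2 was at 322, 414 and 388 CPM in CMS, against 390, 404 and 395 CPM in Ctrl, a log2 fold change of -0.08 (edgeR, adjusted p = 0.667). Adamts3 had 60, 72 and 92 counts in CMS, against 35, 46 and 32 counts in Ctrl, with no overlap and a log2 fold change of 0.84 (edgeR, adjusted p = 0.0864). Adamts14 was at 13.0 to 15.0 CPM in CMS and 12.3 to 15.8 CPM in Ctrl, which overlapped.

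Adamts6, Adamts10 and Adamts17 are tied to fibrillin microfibrils, and changes in human ADAMTS10 and ADAMTS17 cause short-stature syndromes with lens defects. Adamts17 had 1, 17 and 15 counts in CMS, against 51, 63 and 48 counts in Ctrl. The groups did not overlap, and it fell by 2.41 on the log2 scale with an SE of 0.60 (edgeR, adjusted p = 0.0259). CMS replicate 1 was far the lowest, and without it the log2 fold change was -1.86 and still called (adjusted p = 0.0159). Without CMS replicate 3 or Ctrl replicate 1 the adjusted p was 0.0649 or 0.0589. Adamts10 was at 50.2, 72.0 and 69.1 CPM in CMS, against 79.0, 91.0 and 73.4 CPM in Ctrl. It did not overlap and was not called, at a log2 fold change of -0.35 with an SE of 0.14 (edgeR, adjusted p = 0.137). Adamts6 was at 11.6 to 13.5 CPM in CMS and 8.88 to 14.3 CPM in Ctrl, which overlapped.

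No ADAMTSL gene was called among 4 tested by edgeR, and 1 had an unadjusted p under 0.05. That was Adamtsl1, or punctin, at 35.0, 60.6 and 48.3 CPM in CMS, against 65.8, 81.9 and 59.7 CPM in Ctrl. CMS replicate 2 was just above Ctrl replicate 3, and the log2 fold change of -0.53 with an SE of 0.19 had an adjusted p of 0.087 (edgeR). DESeq2 called it at 0.0432, and edgeR without CMS replicate 2 at 0.0337. Adamtsl4, which binds fibrillin-1 and is known from human lens dislocation, was at 178, 205 and 228 CPM in CMS, against 182, 189 and 184 CPM in Ctrl, and overlapped. Adamtsl3 and Adamtsl5 had log2 fold changes of 0.01 and 0.05.

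The TIMPs were abundant and none of the 3 tested was called by edgeR, nor did any have an unadjusted p under 0.05. Timp2, the inhibitor that also takes part in proMMP2 activation by Mmp14, was at 2141, 2291 and 2217 CPM in CMS, against 1979, 1945 and 1947 CPM in Ctrl. Every CMS library was above every Ctrl library, but by little, with a log2 fold change of 0.18 and an SE of 0.09 (edgeR, adjusted p = 0.229). Timp3, the TIMP that binds to the matrix and inhibits ADAMTS enzymes, was at 3370, 2807 and 2725 CPM in CMS, against 3063, 2994 and 2254 CPM in Ctrl. Timp1, the classic inducible TIMP, was at 343, 308 and 353 CPM in CMS, against 291, 260 and 380 CPM in Ctrl. Both overlapped, with log2 fold changes of 0.10 for Timp3 (SE 0.14) and 0.11 for Timp1 (SE 0.14). Timp4 was not tested, with 1, 0 and 9 counts in CMS, against 1, 1 and 2 counts in Ctrl. The TIMP genes summed to 5519 ± 296 CPM in CMS and 5038 ± 401 CPM in Ctrl, and the MMP genes to 4696 ± 60.2 CPM in CMS and 5059 ± 286 CPM in Ctrl (SD, n = 3 each).

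The 15 members that were not tested had at most 11 counts in any library. Adamts8, Adamts18, Adamts19, Mmp1b, Mmp20 and Mmp21 had 0 counts in all 6 libraries, which allows up to 0.0721 to 0.0853 CPM per library at 3 counts. The 27 tested members that were not called had log2 fold changes between -0.53 and 1.57, and 10 of them had an unadjusted p under 0.05. Counts by unadjusted p, here and for the families above, have no share of all tested genes beside them. They are therefore not read as responses.

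The genes around the members in matrix proteolysis were read from lists of 77 genes, 68 of them tested, of which 10 were called higher and 12 lower. These are 14.7% and 17.6% of the tested list genes, beside 5.94% and 7.39% of all tested genes, and 13.3% of all tested genes were called in either direction. The lists were chosen with earlier results of these data known, so the larger shares cannot be read as a result about these genes. In plasminogen activation, a protease system that can activate proMMPs, the urokinase receptor Plaur rose by a log2 fold change of 0.48 (edgeR, adjusted p = 0.017), and 6 of 8 genes were not called. Among the ADAM sheddases, membrane proteases that release surface proteins, Adam9 (log2 fold change 0.61) and Adam17 (0.44) rose, 2 of 8. Among the lysosomal cathepsins and cystatin C, Ctsb (0.41), Ctsd (0.45) and Ctsk (0.41) rose, 3 of 6. These 6 higher calls rest on the full set: each was lost without CMS replicate 2 and in at least 1 other fit that left out 1 library, with adjusted p-values up to 0.154, and the 10 higher calls became 3 without CMS replicate 2, 3 without CMS replicate 3 and 4 without Ctrl replicate 1. The collagen-processing astacins, their enhancers and the proprotein convertases had 0 of 6 called by edgeR.

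Of the inhibitors, clearance receptors and inducers, 4 of 7 were called. Bsg (basigin or EMMPRIN), known as an inducer of MMPs, fell by 1.04 on the log2 scale with an SE of 0.14 (edgeR, adjusted p = 0.000954). The protease inhibitor A2m had 1, 0 and 2 counts in CMS, against 16, 18 and 23 counts in Ctrl, and was called lower (edgeR, adjusted p = 0.00351). The ratio of its summed counts, CMS over Ctrl per library size, was 0.0477 with a 95% interval of 0.00955 to 0.147 for counting error. Papln, an ADAMTS-related matrix protein, fell by 1.71 on the log2 scale, a call lost without CMS replicate 3 or Ctrl replicate 1 (adjusted p up to 0.0609). Wfikkn2, a secreted protein with protease inhibitor domains, rose by a log2 fold change of 1.74. Of the 15 AP-1, ETS, RUNX and NF-kB factors, Fosb was called, higher at 43.9, 57.9 and 49.1 CPM in CMS, against 23.7, 18.4 and 15.9 CPM in Ctrl. Its log2 fold change was 1.38 with an SE of 0.16 (edgeR, adjusted p = 0.000499). Fos and Jun, at log2 fold changes of 0.19 and 0.35, were not called.

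Of the substrates of the members, 8 of 18 were called lower and 2 higher. Col1a1, Col1a2 and Col3a1, cut by Mmp13, fell by 0.70, 0.55 and 0.92 on the log2 scale, and Sparc by 0.70. The small proteoglycan Dcn fell by 1.02 and its relative Fmod fell by 2.20 on the log2 scale, and Comp fell by 1.56. Eln, elastin, had 7, 16 and 2 counts in CMS, against 45, 61 and 67 counts in Ctrl. It fell by 2.90 on the log2 scale, and by 3.84 without CMS replicate 2, its highest CMS library. Vcan, the versican cut by Adamts5, Adamts9 and Adamts20, rose, at 247, 297 and 277 CPM in CMS, against 116, 131 and 81.7 CPM in Ctrl. Its log2 fold change was 1.32 with an SE of 0.16 (edgeR, adjusted p = 0.000659), in the direction opposite to those 3 enzymes. The proteoglycanases Adamts1 and Adamts4 did not share the fall of those enzymes as calls, at log2 fold changes of -0.09 and 0.31. Lamb1 rose by 0.43 on the log2 scale, a call kept in 1 of the 6 fits that left out 1 library (adjusted p up to 0.141).

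**Figure D4:**
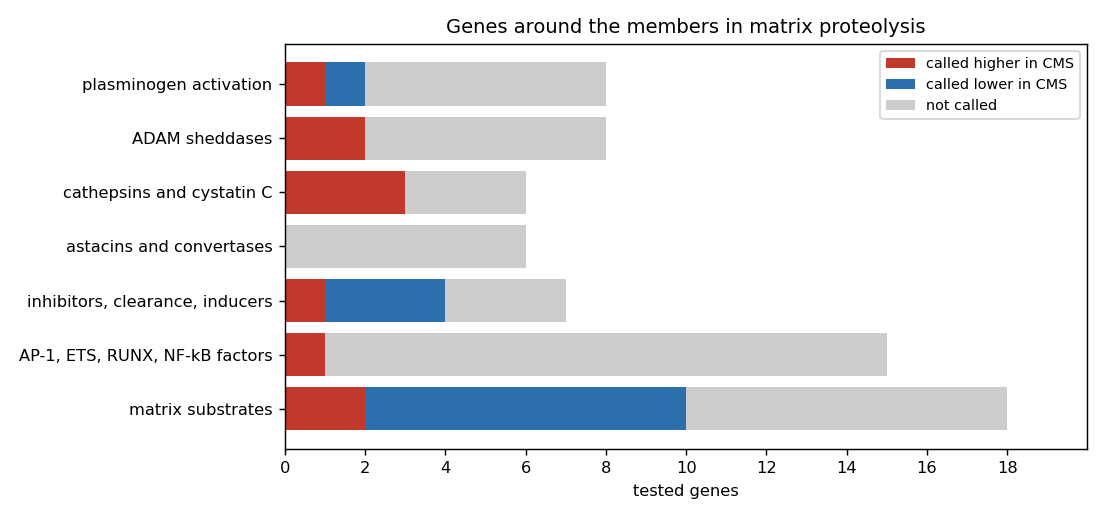
Number of tested genes (x axis) in each list of genes around the members, split into those called higher in CMS (red), called lower in CMS (blue) and not called (grey). The matrix substrates, with 2 higher and 8 lower of 18, hold most of the lower calls. The lists were chosen with earlier results of these data known.

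Open chromatin at the members was read as deposited ATAC-seq peaks within 1000 bases of an annotated start, for the 36 members with a promoter entry. Peaks were present at 4 and 4 members in the Piezo1 knockout libraries, and at 3 and 11 members in the GFP libraries. These are 11.1%, 11.1%, 8.33% and 30.6% of the members, beside 25.8%, 25.7%, 24.6% and 32.7% of all 27025 genes. A peak in at least 1 library was found for 12 members, 33.3% beside 34.1%, and in all 4 libraries for 1 member, 2.78% beside 20.1%. That member was Adamtsl4. The 15 members without an entry, among them the called Mmp9, Mmp19, Adamts5 and Adamts7, are outside these shares. Of these, Mmp19 in Piezo1 knockout replicate 2 and Mmp16 in GFP replicate 2 had a peak at an end of their annotated span. Mmp9 had no peak within or close outside its span in any library. Adamts1 had a start peak in both Piezo1 knockout libraries and in neither GFP library, while Mmp28 and Adamts12 had one in both GFP libraries and in neither Piezo1 knockout library. GFP replicate 2 had the longest list, 26652 peaks, beside 15980 and 13610 in the knockout libraries and 15978 in GFP replicate 1. With 2 libraries per group and unknown depth, no test was made.

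**Figure D5:**
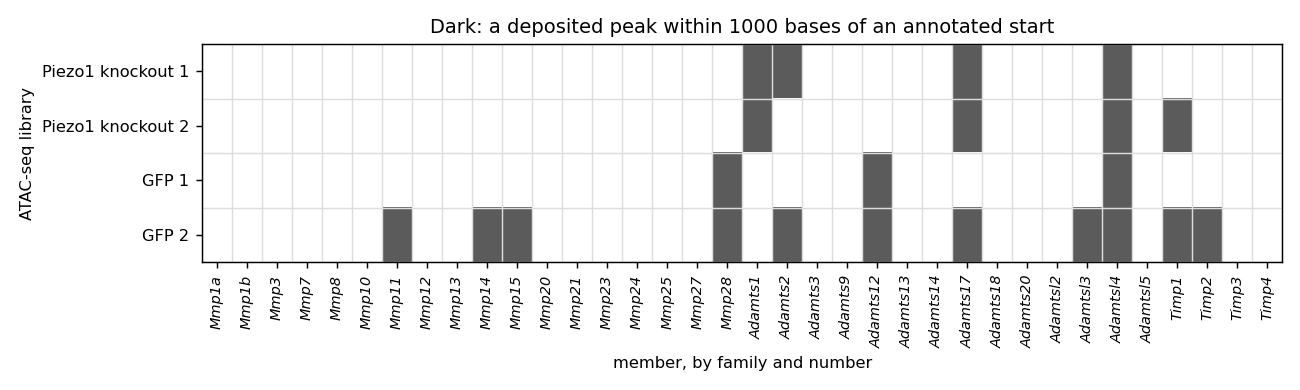
Presence (dark) of a deposited peak within 1000 bases of an annotated start, for the 36 members with a promoter entry (x axis) in the 2 Piezo1 knockout libraries (upper rows) and the 2 GFP libraries (lower rows). Adamtsl4 is dark in every row, and 11 of the 12 marked members are dark in GFP replicate 2.

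None of the 10 cluster genes had a peak at its start, Mmp3 and Mmp13 included. The run held 1 peak site, about 13 kb past the right end of Mmp27, in Piezo1 knockout replicate 1, GFP replicate 1 and GFP replicate 2 but not in knockout replicate 2. In GFP replicate 2 it lay at chr9:7595110-7595399. Timp2 had an intragenic peak in all 4 libraries, at chr11:118327225-118328090 in knockout replicate 1, with the authors' fold enrichment at 5.39 and 6.86 in the knockout libraries and 7.44 and 8.02 in the GFP libraries. Other members did not all keep that order. The highest values at Adamtsl4 were 7.65 and 8.18 in the knockout libraries and 6.98 and 6.85 in the GFP libraries. Those at Timp3 were 6.92 and 5.61, against 6.67 and 8.39. Adamts7, named here after its values were seen, had a peak within its span in both knockout libraries and neither GFP library. Adamts6 was the reverse, with 2 and 3 peaks within its span in the GFP libraries and none in the knockout libraries. Over the annotated spans of all 51 members and the bases close outside them, the knockout lists held 27 and 31 peaks, against 43 and 86 in the GFP lists. The Adamts4 peaks, for one, all lay past its annotated end. These totals were not scaled to the length of each list, and no such totals over all gene spans are given. Adjacent peaks, such as those around the Adamts12 start in GFP replicate 2, were each counted. They include 2 and 2 against 8 and 16 peaks at Adamtsl3, and 2 and 2 against 6 and 11 at Adamtsl1. Adamts12 had 1 and 1 against 5 and 12, while Adamts1, like Adamts7, went the other way, at 2 and 2 against 1 and 1.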

How the data were processed

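RNA-seq was measured in 3 CMS and 3 Ctrl libraries and ATAC-seq in 2 Piezo1 knockout and 2 GFP libraries. Per the labels' protocols, a full-length kit for single cells was used to amplify the cDNA. The authors deposited raw read counts per gene symbol. Trim Galore 0.6.5, STAR and HTSeq with mm10 are named for them in the submitters' processing notes. The annotation, the strand setting and how multiply mapped reads were treated are not known here. The deposited peak lists, 1 per library, hold a fold enrichment (a ratio to that library's local background) and −log10 p and −log10 q values for each peak, made by the authors with Bowtie2 2.4.2 and MACS2 per the submitters' processing notes.

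CMS was compared with Ctrl by edgeR 4.0.16 in R 4.3.3 (glmQLFit and glmQLFTest, two-sided), after TMM scaling and filterByExpr, over 15335 genes with Benjamini-Hochberg adjustment and a threshold of 0.05. CPM are not corrected for length, so levels are not compared between genes, and the planned levels per length were not computed because transcript lengths were not at hand. Named members were those called, the TIMPs, those with a mean of at least 10 CPM, those without overlap at an absolute log2 fold change of at least 1, and a set of well-known members; of the lists, the called genes, except 1 that is not reported here. The members and lists were chosen with earlier results of these data known. DESeq2 1.42.0, limma-voom (limma 3.58.1), other scalings and filters, a replicate block and leaving out libraries were tried. The replicate numbers were not treated as pairs. No p-value was computed for the peaks.

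Markers of other cell types were low, with osteoclast markers at 5.51 to 6.98 CPM in CMS and 2.22 to 3.54 CPM in Ctrl (Ocstamp, Dcstamp and Calcr at 0, with most of the sum from Atp6v0d2, called higher at a log2 fold change of 1.12), endothelial markers at 3.96 to 6.37 CPM in CMS and 3.07 to 4.04 CPM in Ctrl (Cdh5 at 0), and epithelial markers at 3.00 to 4.53 CPM in CMS and 8.45 to 9.75 CPM in Ctrl (Epcam at 0, with Cdh1 called lower at a log2 fold change of -1.91).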

Additional observations from a re-analysis of the deposited data

How the results depend on the processing

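The 4 higher member calls stayed between 4 and 6 in number under other scalings, filters and tools, and between 4 and 5 when 1 library was left out. The 5 lower calls became 8 with the replicate block and ranged from 2 to 6 when 1 library was left out, with 2 without CMS replicate 3 or Ctrl replicate 1. Without both CMS replicate 1 and Ctrl replicate 3, a choice made after seeing the data, 8 members were called higher and 7 lower, and 14 list genes higher and 20 lower. List genes called higher were 16 with the replicate block and 3 to 11 when 1 library was left out, while those called lower were 10 to 14. Same-numbered CMS and Ctrl libraries deviated together with correlations of 0.0587, 0.373 and 0.191, and CMS replicate 1 correlated best with Ctrl replicate 3, so the numbers were not taken as pairs. Members with a start peak fell to 1 when all 4 libraries were required. Over all genes the calls were 911 higher and 1134 lower. They were 1557 and 1619 with the block, 1512 and 1614 without both libraries, 420 and 661 without CMS replicate 2, 404 and 577 without CMS replicate 3, 369 and 610 without Ctrl replicate 1, 698 and 843 without Ctrl replicate 3, and 1320 and 1540 by DESeq2. With library size alone, 55.6% of calls were higher, beside 44.5%.

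Members that changed sign were all uncalled. The log2 fold change of Mmp2 was 0.044 with library size alone. Without both libraries it was 0.02 for Mmp2, 0.03 for Mmp24, 0.01 for Adamts2, -0.05 for Adamts12, -0.01 for Adamts14, -0.18 for Adamts6, -0.08 for Adamtsl3 and -0.13 for Timp3. When 1 library was left out, it ranged from -0.21 to 0.013 for Adamts1, -0.34 to 0.36 for Adamts12, -0.064 to 0.11 for Adamts14, -0.16 to 0.016 for Adamts2, -0.13 to 0.19 for Adamts6, -0.19 to 0.19 for Adamtsl3, -0.0056 to 0.10 for Adamtsl5, -0.047 to 0.034 for Mmp2, -0.00094 to 0.15 for Mmp28, -0.0047 to 0.28 for Timp1, -0.03 to 0.18 for Timp3, -0.20 to 0.08 for Mmp23, -0.14 to 0.08 for Mmp24 and -0.13 to 0.24 for Adamts16. The cause of these changes was not tested. Low counts limit Mmp8, Mmp10, Mmp12, Mmp15, Adamts17 and Adamts20.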
